A study of Mus musculus with 34 samples.

Results

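The purinergic receptors of microglia considered here are 7 genes taken from 21627 protein-coding mouse genes: P2ry12, P2ry13, P2ry14, P2ry6, Gpr34, P2rx4 and P2rx7. They were chosen by name, as receptors through which microglia sense nucleotides and related lipids, and not by a measured value. The data are lists of called peaks from ULI-NChIP-seq, which pulls down native chromatin from small numbers of cells with an antibody to a histone mark, deposited for a study of how restricted growth before birth bears on 4 histone marks. Microglia of the hippocampus came from mice labelled Ctrl and from mice labelled FGR, and all of them carried the genotype Tmem119-tdTomato+/-, a fluorescent reporter of a microglial gene. H3K4me3 typically lies at active promoters, the acetylation marks H3K9ac and H3K27ac at active promoters and enhancers, and H3K9me3 in silent heterochromatin, and each mark had 4 libraries per group. Replicates 1 to 3 are labelled as 3 weeks after birth, and replicate 4 carries no age. Neither how growth was restricted nor whether a library holds 1 animal or a pool is stated in the labels, so the p-values speak of the spread among these libraries alone, which may be technical.

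Extracellular nucleotides leak from active or damaged cells, and microglia read them through G protein-coupled P2Y receptors and ATP-gated P2X channels. P2ry12 and P2ry13 encode receptors for ADP that couple to inhibitory G proteins, and P2ry12 steers microglial processes towards a source of ATP and is a standard marker of the resting state. P2ry14 encodes a receptor for UDP-sugars, P2ry6 a receptor for UDP that is linked to phagocytosis, and Gpr34 a related receptor for lysophosphatidylserine. P2rx4 and P2rx7 encode cation channels opened by ATP, and P2rx7 is known as a trigger of the NLRP3 inflammasome.

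Coverage was measured in each library in 2 ways: gene-end coverage, the kb under called peaks inside a window that reaches 2.5 kb to each side of both gene ends, and domain coverage, the percentage under peaks of the gene body with 20 kb on each side. The end window was 10 kb long at each gene except P2ry13, a gene of 2.99 kb, where it was 7.99 kb. Domain windows ran from 43.0 kb at P2ry13 to 88.4 kb at P2rx7. Those of P2ry12 and P2ry13 overlap, as do those of P2rx4 and P2rx7, so these genes share part of their values. Values are mean ± SD with n = 4 libraries per group, and adjusted p-values are two-sided from limma, adjusted by Benjamini-Hochberg across every gene tested for the mark. Genes with a peak in the window in 2 or more libraries of a mark were tested, and the threshold was an adjusted p of 0.05.

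The lists differed between the groups in ways that touch every value below. Between 16598 and 18391 H3K4me3 peaks were listed per Ctrl library, against 43175 to 49045 per FGR library. MACS2 sets the least width of a peak by the fragment length it estimates, and the smallest H3K4me3 peaks measured 275 to 280 bp in the Ctrl lists but 148 to 150 bp in the FGR lists. Smallest H3K27ac peaks had widths of 267 to 284 bp (Ctrl) against 148 to 151 bp (FGR), while those of H3K9ac were closer, with 262 to 271 bp against 252 to 260 bp. No read counts came with the lists, so depth is unknown, and the part of depth and fragment length in the results was not tested. The libraries labelled FGR H3K4me3 went partly against their label: over 16004 genes their end coverage correlated with Ctrl H3K9ac at a mean r of 0.876 and with Ctrl H3K4me3 at 0.765. Libraries labelled FGR H3K9ac did not mirror this, with 0.666 against Ctrl H3K9ac and 0.531 against Ctrl H3K4me3. Ctrl H3K4me3 libraries correlated with one another at a mean r of only 0.837, and Ctrl H3K9ac libraries at 0.969. Any r with Ctrl H3K4me3 is limited by that spread, so 0.876 against 0.765 does not by itself tell whether a label is wrong. Both marks are described by their labels as they stand, and the H3K27ac comparison does not use those libraries (mean r of 0.922 between Ctrl and FGR H3K27ac). All 9 microglial markers examined, among them Tmem119 and Cx3cr1, had a peak at a gene end in every library of the 3 active marks, which fits the labelled cell type. Neuronal markers (Rbfox3, Snap25, Syt1, Tubb3) had no H3K27ac in any Ctrl library and a summed 0 to 0.364 kb in FGR. Markers of each other cell type examined had some H3K27ac in every Ctrl library. Their sums ran from 0.506 kb (lymphocytes and neutrophils) to 5.335 kb (astrocytes), against 69.6 to 70.4 kb over the 9 microglial markers.

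In the libraries labelled FGR, H3K4me3 covered more of all 7 domains, H3K27ac covered less of all 7, and H3K9ac covered less of 5. H3K4me3 domain coverage passed the test for a rise at 7 of 7 genes, against 96.3% of 16694 genes tested. None passed for a fall by limma (0 at an unadjusted p under 0.05). Over the 7 genes the median rise was 10.6 percentage points, and over all genes 2.63. H3K27ac domain coverage fell at 7 of 7 genes, against 82.4% of 15289 genes, with medians of -12.8 and -2.34 percentage points. These shares lie near the background, so the direction of both marks was that of nearly all genes. H3K9ac was different in its background: 27.2% of 18191 genes fell and 32.2% rose, while 5 of the 7 receptors fell and none rose by limma (1 at an unadjusted p under 0.05, P2rx4). The median difference in H3K9ac was -6.25 percentage points over the 7 genes and 0.27 over all genes. These are bulk libraries, in which fewer marked cells and less mark per cell cannot be told apart.

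After quantile normalization, which gives all libraries of a mark the same distribution and so removes a shift shared by all genes, 2 of the 7 domains were higher in FGR for H3K4me3 (P2ry12 and Gpr34), 6 were lower for H3K9ac (all but P2rx4), and for H3K27ac the direction turned, with P2ry12 and P2ry13 higher and none lower by limma (1 at an unadjusted p under 0.05, Gpr34). Over all genes, this scaling turned 16076 higher and 3 lower into 2953 and 4490 for H3K4me3, 5860 and 4947 into 5079 and 6655 for H3K9ac, and 18 and 12604 into 1886 and 1679 for H3K27ac. It moved the median difference of all genes from 2.63 to -0.21 percentage points for H3K4me3 and from -2.34 to 0.09 for H3K27ac.

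**Figure D1:**
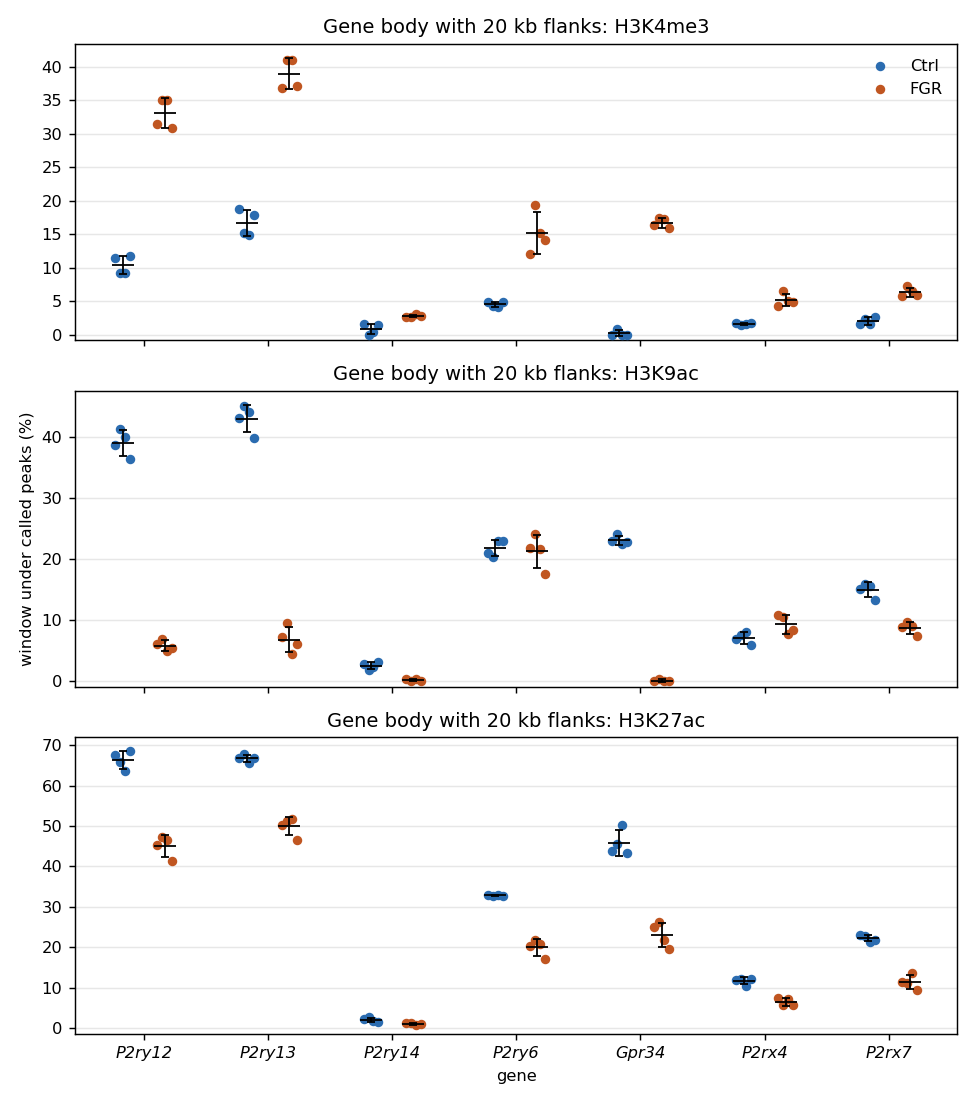
Domain coverage of the 7 receptor genes, as the percentage of the gene body with 20 kb flanks under called peaks (y axis), for H3K4me3, H3K9ac and H3K27ac. Each point is 1 library (blue Ctrl, orange FGR), with mean and SD in black. Groups are apart at every gene except P2ry6 and P2rx4 in H3K9ac. Over all genes tested, limma called 96.3% higher in FGR for H3K4me3 and 82.4% lower for H3K27ac, so a difference in these marks was common. For H3K9ac it called 27.2% lower and 32.2% higher. Under quantile normalization the H3K27ac order turns at P2ry12, P2ry13, P2ry14, P2ry6 and P2rx4 and the H3K4me3 order at P2ry14.

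**Figure D2:**
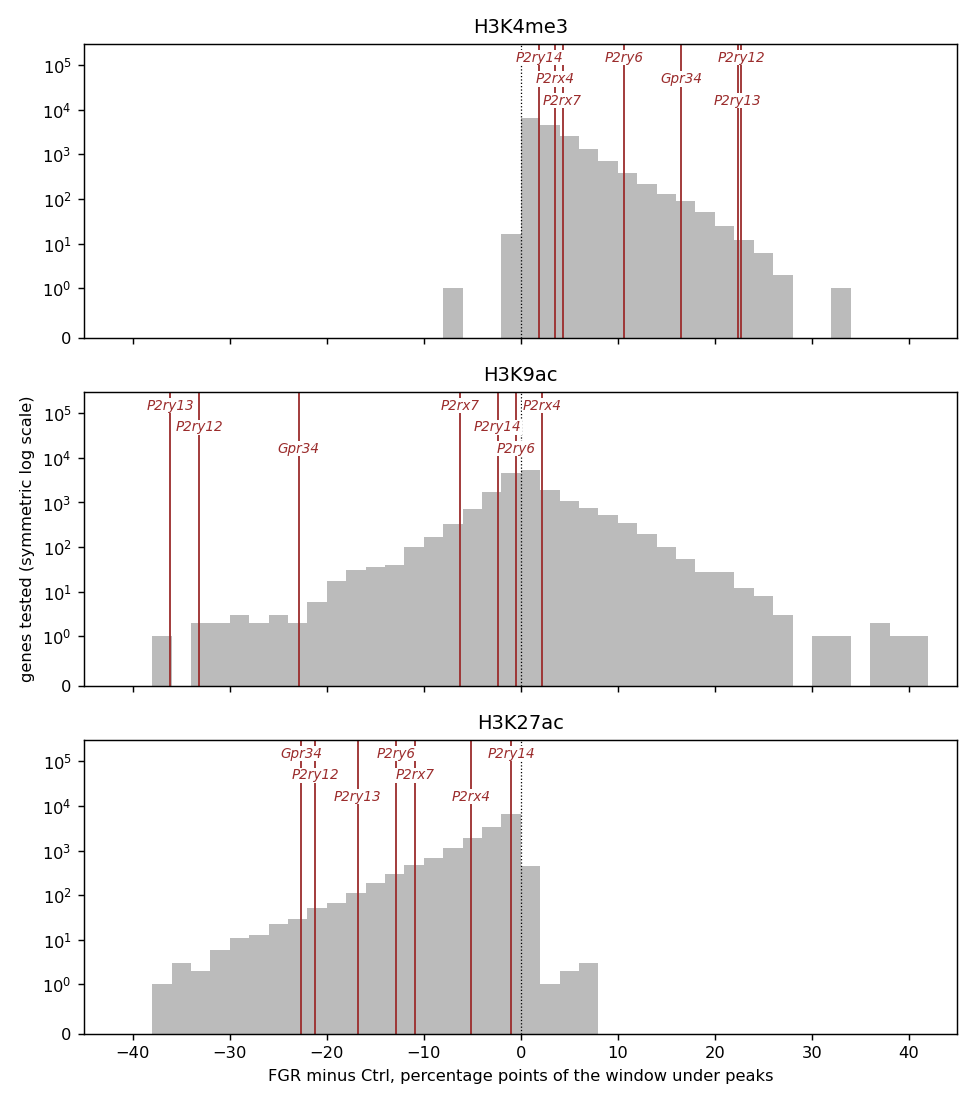
Distribution over all genes tested of the FGR minus Ctrl difference in domain coverage, in percentage points (x axis) against the number of genes on a symmetric log scale (y axis), 1 panel per mark. Red lines mark the 7 receptors: P2ry13, P2ry12 and Gpr34 lie at the far left for H3K9ac, at -36.1, -33.2 and -22.9 points, in lists as deposited and without a common scaling of the libraries.

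The ADP receptor genes P2ry12 and P2ry13 stood in 1 block of active chromatin. P2ry12 lies on chromosome 3 from 59216271 to 59262985 (mm10, minus strand), P2ry13 5.39 kb further along from 59207892 to 59210882, and P2ry14 another 54.4 kb away from 59114623 to 59153492. All 3 lie inside Med12l, a gene of a Mediator subunit that spans 59005419 to 59318446 on the opposite strand. The promoter windows of these genes (250 bases before to 50 after the start, RefSeq, GRCm38.p6, minus strand, 5′ to 3′) are shown because the genes part there: in Ctrl the first 2 windows lay wholly under H3K9ac and H3K27ac peaks in 4 of 4 libraries and the P2ry14 window in none. Capitals mark GAGGAA, the core letters of the site of PU.1, a lineage factor of myeloid cells, on either strand.
P2ry12, chr3:59262936-59263235: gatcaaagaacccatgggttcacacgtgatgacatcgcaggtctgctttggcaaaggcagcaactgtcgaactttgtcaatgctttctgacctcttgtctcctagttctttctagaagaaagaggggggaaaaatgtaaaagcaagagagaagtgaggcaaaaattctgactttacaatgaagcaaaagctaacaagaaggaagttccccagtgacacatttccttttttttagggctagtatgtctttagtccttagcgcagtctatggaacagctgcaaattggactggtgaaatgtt
P2ry13, chr3:59210833-59211132: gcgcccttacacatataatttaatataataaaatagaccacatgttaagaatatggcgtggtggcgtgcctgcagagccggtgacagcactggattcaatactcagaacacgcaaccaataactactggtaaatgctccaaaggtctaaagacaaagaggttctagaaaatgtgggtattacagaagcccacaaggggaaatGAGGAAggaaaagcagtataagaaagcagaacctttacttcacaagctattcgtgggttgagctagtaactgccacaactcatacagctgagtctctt
P2ry14, chr3:59153443-59153742: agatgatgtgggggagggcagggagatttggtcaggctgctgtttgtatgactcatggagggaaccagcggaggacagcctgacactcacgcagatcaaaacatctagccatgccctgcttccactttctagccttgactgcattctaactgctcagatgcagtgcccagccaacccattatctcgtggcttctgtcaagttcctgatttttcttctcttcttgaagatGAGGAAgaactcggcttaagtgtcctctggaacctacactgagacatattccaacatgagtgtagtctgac

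The P2ry13 window holds GAGGAA at position -48 from the start and that of P2ry14 at -21, and the P2ry12 window does not hold these letters. A match was found in 28.3% of all 32851 promoter windows of this length, so it describes the letters and not a bound site. P2ry14 has 4 promoter windows in the table, and the one printed also holds the AP-1 letters TGANTCA at position -202 (7.81% of all windows). The P2ry12 window holds the C/EBP letters TTGCNNAA on its reverse strand (10.8% of all windows). All 3 are poor in CpG, with 4, 6 and 4 CpG against a median of 7 over all windows.

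P2ry12 gene ends carried 2.87, 2.13, 2.28 and 2.67 kb of H3K4me3 in the Ctrl libraries and 8.15, 8.004, 8.05 and 7.76 kb in the FGR libraries. Every FGR library lay above every Ctrl library, 3.21-fold on the means (2.49 ± 0.344 kb and 7.99 ± 0.165 kb, adjusted p = 1.75e-07). This was the 5th largest rise of 14040 genes. Its rise of 2.42 kb after quantile normalization still passed the test (adjusted p = 0.000116). At the start site itself, 3 of 4 Ctrl libraries had a peak, 0.339 to 0.634 kb wide with a fold enrichment of 3.74 to 4.69. All 4 FGR libraries had one there, 3.35 to 8.06 kb wide with a fold of 26.9 to 30.3. Widths and folds are the authors' and describe peaks within their own list.

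H3K9ac at the P2ry12 ends took the opposite course, with 7.38, 6.78, 7.21 and 7.104 kb in Ctrl and 1.69, 1.28, 1.82 and 1.504 kb in FGR. The groups did not overlap, and coverage was 4.52-fold lower in FGR (adjusted p = 3.32e-07). Over the whole domain it went from 33.8 ± 1.84 kb to 5.07 ± 0.740 kb, which is 39.0% and 5.85% of the window and the 3rd largest fall of 18191 genes (adjusted p = 2.51e-06). The Ctrl level was the 19th highest of these genes. The peak over the start site was 7.87 to 8.18 kb wide in the 4 Ctrl libraries, and in FGR 2 libraries had one, of 0.442 and 0.457 kb.

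In the H3K27ac lists, P2ry12 ends were covered over 9.84, 9.39, 9.55 and 10 kb in Ctrl and 7.95, 8.496, 7.96 and 7.39 kb in FGR. The fall of 1.74 kb passed the test (adjusted p = 9.17e-05), but not with the 5′ end alone, where coverage fell by 0.133 kb (adjusted p = 0.158), and after quantile normalization the difference turned to 0.433 kb (adjusted p = 0.127). P2ry12 had the 6th longest end coverage of 11873 genes in Ctrl and the 2nd longest in FGR. Over the domain, 58.6, 57.1, 55.1 and 59.4 kb in Ctrl stood against 39.2, 41.1, 40.4 and 35.8 kb in FGR. The stretch was split into 13 to 20 peaks per Ctrl library and 35 to 43 per FGR library, with median widths of 1182 to 2416 bp and 445 to 596 bp. Narrower calls thus moved with the lower coverage.

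P2ry13, next to it, followed the same pattern. Its ends had 5.41, 3.91, 3.47 and 4.37 kb of H3K4me3 in Ctrl and 7.02, 7.46, 7.18 and 7.19 kb in FGR (adjusted p = 6.62e-05). That rise was gone after quantile normalization, where the difference was -0.57 kb (adjusted p = 0.112), and P2ry13 was already 2nd of all genes in Ctrl by H3K4me3 end coverage. H3K9ac went from 7.63, 7.53, 7.66 and 7.92 kb to 2.56, 2.63, 0.921 and 2.10 kb, the 2nd largest fall of 15601 genes (adjusted p = 7.47e-06). Over its domain H3K9ac fell by 36.1 percentage points, from 42.9% to 6.82%, the largest fall of all 18191 genes tested (adjusted p = 5.41e-06). The Ctrl level was the 10th highest of these genes. No FGR library had an H3K9ac peak over the P2ry13 start site, although all 4 had one in part of its promoter window. H3K27ac filled the whole 7.99 kb end window in every Ctrl library and 7.54, 7.33, 7.75 and 7.15 kb of it in FGR. That small fall passed the test (adjusted p = 0.00364) but not within 1 kb of the ends, where coverage fell by 0.0383 kb (adjusted p = 0.581). After quantile normalization P2ry13 was higher in FGR by 2.02 kb in the limma fit (adjusted p = 1.42e-05). The scaled FGR mean of 8.64 kb exceeds the 7.99 kb window, which Ctrl already filled, so this turn does not show longer coverage.

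P2ry14, the UDP-sugar receptor gene of the same cluster, had little of any mark. H3K4me3 at its ends was 0.409 kb in Ctrl replicate 1, listed at 0 in the other Ctrl libraries, and 0.191, 0.349, 0.381 and 0.361 kb in FGR. The groups overlapped (adjusted p = 0.0805), and without Ctrl replicate 1 the adjusted p was 0.00343. After quantile normalization the difference turned to -0.29 kb (adjusted p = 0.0765). That scaling lifts a listed 0: Gpr34 ends, at 0 in every Ctrl H3K4me3 library, got a scaled Ctrl mean of 0.326 kb. Most Ctrl values of P2ry14 were such zeros, so this turn does not show lower coverage in FGR. H3K9ac was 0.418, 0, 0.549 and 0.442 kb in Ctrl and listed at 0 in all FGR libraries (adjusted p = 0.0380). This call was lost in 7 of 8 fits that left out 1 library (adjusted p of 0.0608 to 0.0946), the exception being the fit without Ctrl replicate 2, and with replicate number as a block (0.0614). H3K27ac was 0.274, 0.389, 0 and 0 kb in Ctrl and listed at 0 in FGR (adjusted p = 0.201). Over the domain all 3 marks passed the test, with 0.851% and 2.77% for H3K4me3, 2.54% and 0.172% for H3K9ac and 2.01% and 1.03% for H3K27ac, in Ctrl and FGR. The printed promoter window was fully covered in no library of any of the 3 marks.

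Over the whole cluster with 20 kb flanks (chromosome 3, 59094623 to 59282985), H3K4me3 covered 11.4, 7.97, 8.38 and 11.3 kb in Ctrl and 30.0, 33.1, 33.4 and 29.7 kb in FGR. H3K9ac covered 36.2, 38.4, 37.6 and 34.6 kb in Ctrl and 5.51, 6.02, 4.63 and 4.66 kb in FGR. H3K27ac covered 61.6, 60.3, 57.3 and 61.6 kb in Ctrl and 40.6, 42.8, 41.3 and 36.9 kb in FGR. Each comparison gave a two-sided exact permutation p = 0.0286, the smallest that 4 against 4 libraries allow. Regions called only in Ctrl made up part of the H3K9ac fall: 5 in the P2ry12 domain, 4 of them inside the gene body, such as chr3:59242746-59244582 and chr3:59254543-59255969. The peaks that persisted in all 8 libraries were the 3 at the ends of P2ry12 and around P2ry13.

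**Figure D3:**
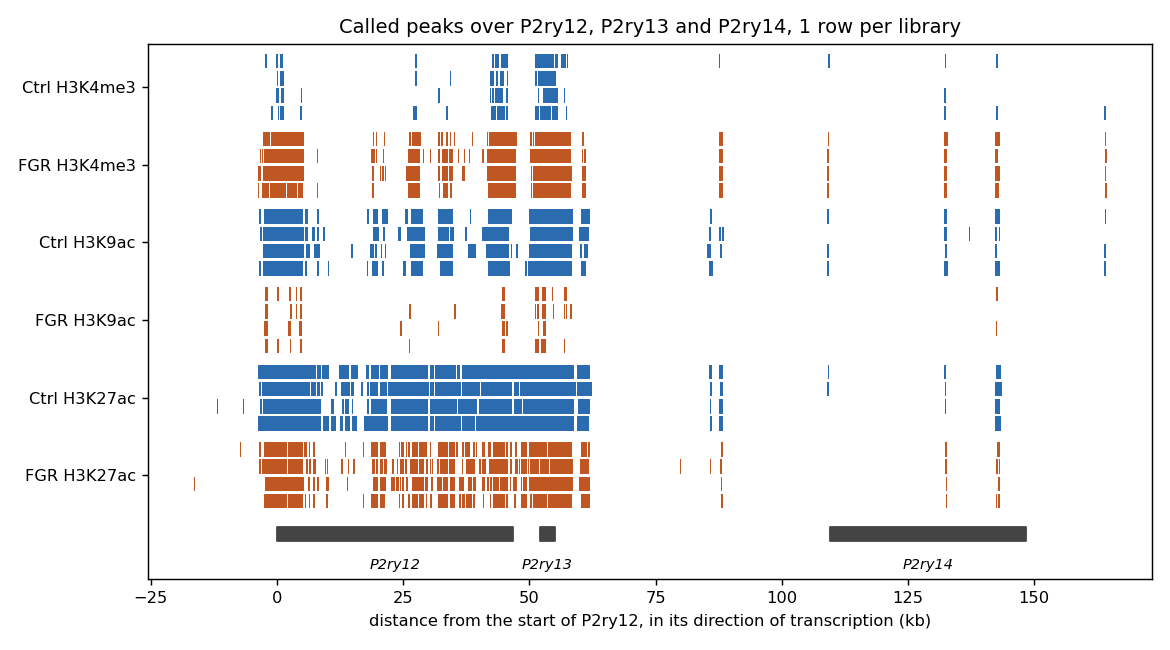
Called peaks over the P2ry12, P2ry13 and P2ry14 cluster, 1 row per library (blue Ctrl, orange FGR), against the distance in kb from the P2ry12 start in its direction of transcription (x axis); grey boxes are gene bodies. H3K9ac blocks of Ctrl are reduced to short peaks in FGR, H3K27ac is broken into more and shorter peaks in FGR, and few peaks of any mark lie at P2ry14; under quantile normalization H3K27ac at P2ry12 and P2ry13 is higher in FGR.

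Gpr34, the lysophosphatidylserine receptor gene, had almost no H3K4me3 in its Ctrl domain and almost no H3K9ac in its FGR domain. It lies on chromosome X from 13622650 to 13640859, inside the much larger Cask (13517080 to 13846783), which encodes a scaffold kinase, so peaks in its body cannot be assigned to 1 of the 2 genes. The promoter table holds no entry for Gpr34 or for P2ry6. H3K4me3 over the domain was listed at 0 in 3 Ctrl libraries and 0.487 kb in Ctrl replicate 2, and was 9.52, 10.1, 10.1 and 9.23 kb in FGR. This was a rise from 0.209% to 16.7% of the window (adjusted p = 1.67e-07), and it stayed past the threshold after quantile normalization, at 10.8 percentage points (adjusted p = 9.54e-06). Most of the FGR signal was 1 peak of 6.73 to 7.77 kb within the gene body, in the region chrX:13631636-13639871. At the gene ends H3K4me3 was listed at 0 in Ctrl and was 1.22, 1.52, 1.35 and 0.980 kb in FGR (adjusted p = 9.69e-06), but within 1 kb of the ends the difference was 0.0475 kb (adjusted p = 0.370).

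The Gpr34 domain had 13.3, 14.01, 13.1 and 13.2 kb of H3K9ac in Ctrl, and in FGR 0.254 kb in replicate 2 and 0 in the other libraries. Groups were far apart, at 23.0 ± 0.723% and 0.109 ± 0.218% of the window (adjusted p = 2.84e-07), the 14th largest fall of 18191 genes. In its domain 6 regions were called in all Ctrl and in no FGR library, the longest at chrX:13631517-13636933, overlapping the stretch where the FGR libraries labelled H3K4me3 had their long peak. H3K27ac covered 25.5, 26.5, 29.2 and 25.2 kb in Ctrl and 14.5, 15.2, 12.6 and 11.4 kb in FGR (adjusted p = 2.72e-05). With quantile normalization the H3K27ac domain fell by 5.27 percentage points (adjusted p = 0.0578), and at the gene ends it still passed, with a fall of 2.04 kb (adjusted p = 0.000161). Ends had gone from 4.41 ± 0.225 kb to 1.13 ± 0.426 kb before that scaling, among the 111 largest falls of 11873 genes. The ends of Cask, whose windows lie outside the Gpr34 domain, had 2.04 ± 0.725 kb of H3K9ac in Ctrl and 1.74 ± 0.209 kb in FGR (adjusted p = 0.428).

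P2ry6, the UDP receptor gene (chromosome 7, 100937630 to 100975498), carried its marks inside the gene and almost none at its ends. H3K4me3 at the ends was listed at 0 in all 8 libraries and was not tested. Over the domain it was 3.77, 3.31, 3.24 and 3.81 kb in Ctrl and 9.31, 15.1, 11.8 and 11.1 kb in FGR (adjusted p = 0.000141), with no overlap, but after quantile normalization the rise of 2.14 percentage points missed the threshold (adjusted p = 0.0693). A region shared by all 8 libraries lay in the body at chr7:100959725-100965198, and 5 further regions were called only in FGR.

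The H3K9ac difference at P2ry6 depended on the window and the scaling. Domain coverage was 16.3, 15.8, 17.8 and 17.9 kb in Ctrl and 16.9, 18.7, 16.8 and 13.7 kb in FGR, and the groups overlapped (a difference of -0.53 percentage points, SE 1.36, adjusted p = 0.748). With 5 kb flanks P2ry6 fell by 9.35 percentage points (adjusted p = 0.00495), with lists of equal length by 4.86 (adjusted p = 0.00755) and after quantile normalization by 4.13 (adjusted p = 0.00294). FGR libraries had extra H3K9ac beyond the gene, such as chr7:100930784-100933002 at the end of the neighbour Arhgef17. At the gene ends, H3K9ac was 0.292 kb in Ctrl replicate 3, 0 in the other Ctrl libraries, and 0.788, 1.68, 0.121 and 0.776 kb in FGR (adjusted p = 0.0427). The groups overlapped, and this rise was lost in 6 of 8 fits that left out 1 library (adjusted p of 0.0587 to 0.0911), all except those without FGR replicate 2 or 3, and with the replicate block (0.0609). H3K27ac over the domain was tight in Ctrl, at 25.6, 25.5, 25.6 and 25.5 kb, and was 15.7, 17.01, 16.2 and 13.2 kb in FGR (adjusted p = 1.35e-05), but quantile normalization turned the difference to 1.305 percentage points (adjusted p = 0.0810).

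The ATP-gated channel genes P2rx7 and P2rx4 lie in a row on chromosome 5, P2rx7 from 122643927 to 122692336 and P2rx4 15.2 kb further on from 122707518 to 122729739, both on the plus strand. Camkk2, which encodes a calcium-dependent kinase, overlaps the P2rx4 body. Their promoter windows (RefSeq, GRCm38.p6, plus strand, 5′ to 3′) are shown because the P2rx4 window was the only printed one that lay wholly under peaks in all 24 libraries of the active marks. Capitals again mark GAGGAA.
P2rx4, chr5:122707294-122707593: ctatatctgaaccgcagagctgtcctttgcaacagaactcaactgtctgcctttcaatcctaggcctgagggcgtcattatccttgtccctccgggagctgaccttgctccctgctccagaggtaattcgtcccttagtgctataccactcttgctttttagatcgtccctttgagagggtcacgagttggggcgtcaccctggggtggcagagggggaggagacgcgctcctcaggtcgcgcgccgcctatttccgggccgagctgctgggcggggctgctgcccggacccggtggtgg
P2rx7, chr5:122643677-122643976: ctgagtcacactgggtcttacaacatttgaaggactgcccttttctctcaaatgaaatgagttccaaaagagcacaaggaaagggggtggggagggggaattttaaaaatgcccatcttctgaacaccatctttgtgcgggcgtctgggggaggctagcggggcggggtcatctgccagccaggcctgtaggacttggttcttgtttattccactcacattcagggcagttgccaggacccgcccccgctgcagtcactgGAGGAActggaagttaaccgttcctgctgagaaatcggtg

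P2rx4 has the most CpG-rich of these windows, with 18 CpG and 60.3% G or C, and no GAGGAA. It holds the SMAD letters CAGACA on the reverse strand (21.0% of all windows). The P2rx7 window holds GAGGAA at position 10, after the start and on the coding strand, and TGANTCA near its upstream border. In the 9 promoter windows listed for these receptors, none held the interferon response letters GAAANNGAA (8.56% of all windows) and 1, at P2ry14, held TATAAA (13.6% of all windows).

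P2rx4 had 1.03, 0.882, 0.968 and 1.10 kb of H3K4me3 at its ends in Ctrl and 2.04, 2.44, 2.201 and 2.16 kb in FGR, 2.22-fold on the means (adjusted p = 6.37e-06). After quantile normalization a rise of 0.0691 kb was left (adjusted p = 0.530). H3K9ac was 2.998, 2.93, 2.95 and 2.504 kb in Ctrl and 1.97, 2.45, 1.93 and 2.06 kb in FGR, a fall of 0.75 kb without overlap (adjusted p = 0.00339). The H3K9ac peak over the start site was narrower in FGR, 1.139 to 1.282 kb against 1.905 to 2.402 kb in Ctrl. Its fold enrichment was higher, 28.3 to 34.4 against 10.5 to 21.2, so the shorter coverage was not a weaker listed peak. Folds describe peaks within their own list. Over the P2rx4 domain H3K9ac was 7.08 ± 0.933% in Ctrl and 9.31 ± 1.56% in FGR (adjusted p = 0.0529), and with 5 kb flanks the difference turned to -0.32 percentage points (adjusted p = 0.775). It passed without FGR replicate 3 (adjusted p = 0.0244) or FGR replicate 4 (adjusted p = 0.0459), and 2 regions there were called only in FGR, 1 of them at chr5:122727019-122727871 where P2rx4 and Camkk2 overlap. H3K27ac at the ends went from 3.49 ± 0.178 kb to 2.41 ± 0.282 kb (adjusted p = 0.000182) and turned to a difference of 0.35 kb after quantile normalization (adjusted p = 0.136).

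P2rx7 had 0.377, 1.23, 0.416 and 0.909 kb of H3K4me3 at its ends in Ctrl and 2.24, 2.46, 2.22 and 2.21 kb in FGR (adjusted p = 5.79e-05), and 0.431 kb of that rise was left after quantile normalization (adjusted p = 0.194). No Ctrl library had an H3K4me3 peak over the P2rx7 start site, and all 4 FGR libraries had one of 2.21 to 2.46 kb. H3K9ac at the ends was 2.197, 2.17, 2.58 and 2.75 kb in Ctrl and 2.09, 2.01, 2.34 and 1.53 kb in FGR, overlapping groups (adjusted p = 0.0905), and without FGR replicate 3 the adjusted p was 0.0472. In the domain H3K9ac fell from 13.4, 14.01, 13.8 and 11.7 kb to 7.82, 8.52, 7.97 and 6.53 kb, without overlap (adjusted p = 0.000373). H3K27ac fell at the ends from 2.98 ± 0.135 kb to 1.79 ± 0.109 kb (adjusted p = 1.34e-05) and in the domain from 22.2% to 11.3% (adjusted p = 1.96e-05), and neither passed after quantile normalization (adjusted p = 0.983 and 0.233).

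**Figure D4:**
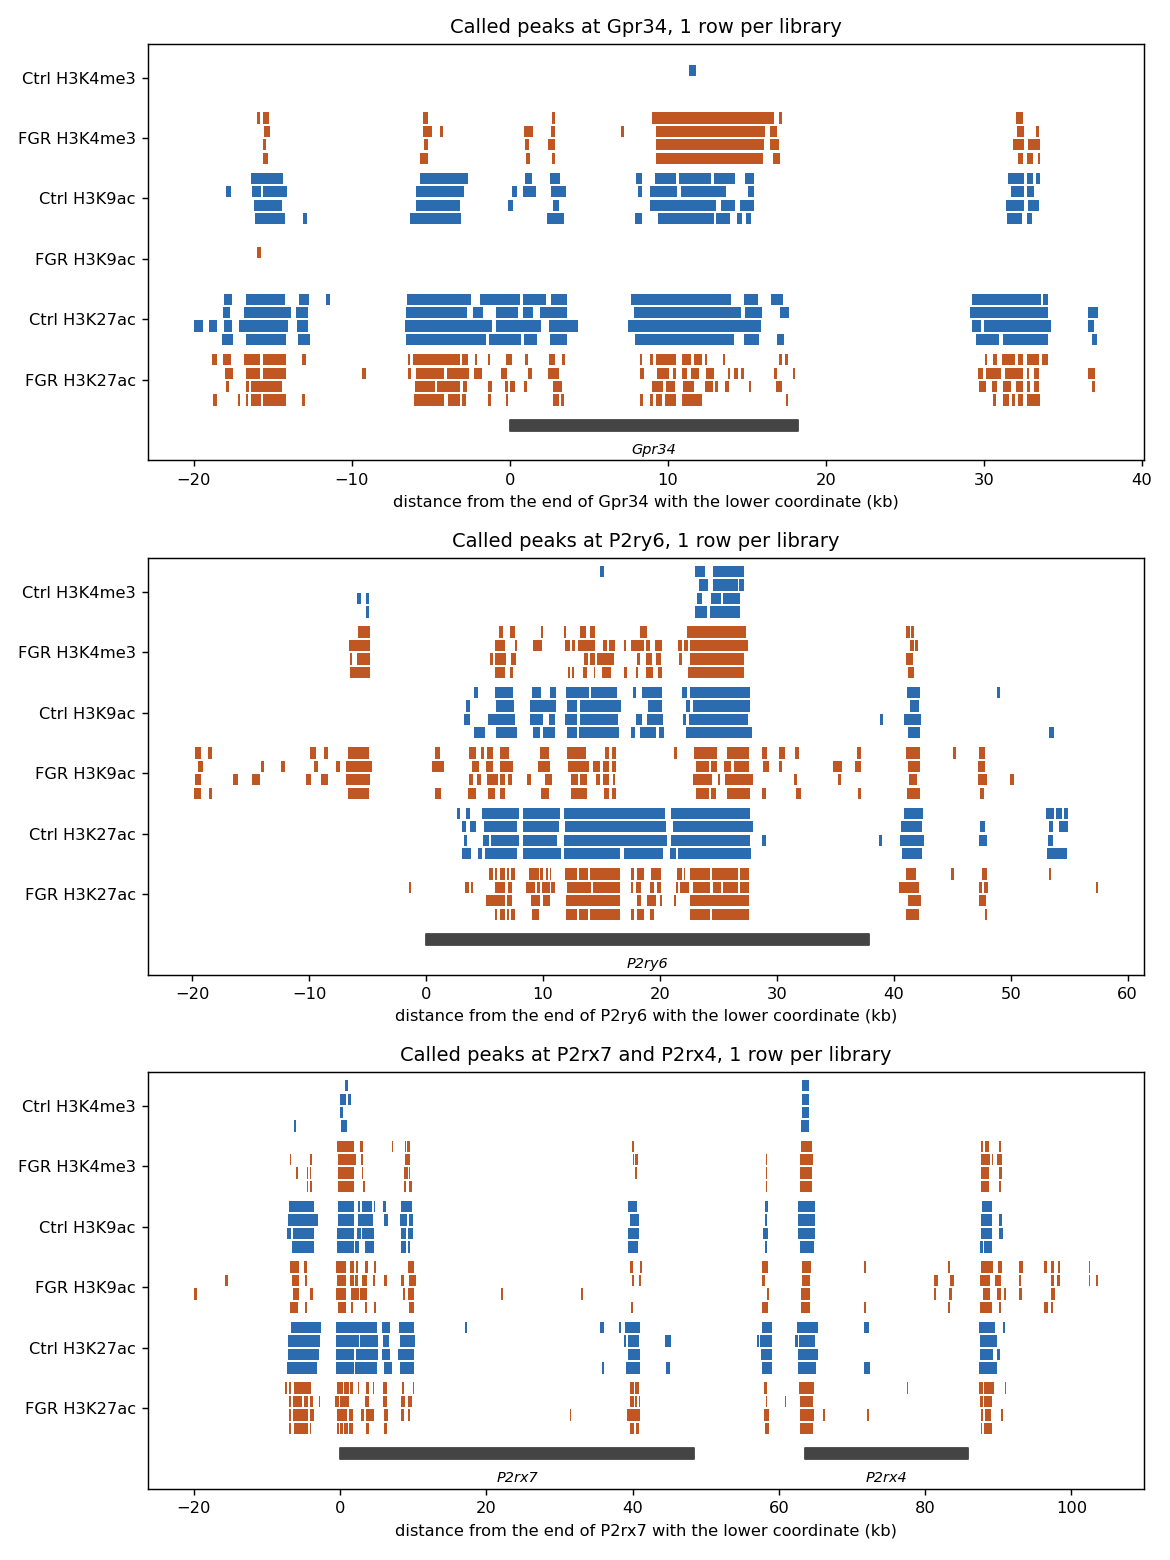
Called peaks at Gpr34, P2ry6 and the P2rx7 and P2rx4 pair, 1 row per library (blue Ctrl, orange FGR), against the distance in kb from the gene end with the lower coordinate (x axis); grey boxes are gene bodies. Gpr34 has H3K9ac in Ctrl libraries and 1 short peak of 0.254 kb in FGR, P2ry6 has H3K9ac in both groups (lower in FGR under quantile normalization), and H3K27ac peaks are shorter in FGR at all 4 genes; under quantile normalization the H3K27ac difference turns at P2ry6 and P2rx4.

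At gene ends alone, 5 of the 6 receptors tested rose in H3K4me3 (P2ry12, P2ry13, Gpr34, P2rx4 and P2rx7), against 95.5% of 14040 genes, and 5 of 7 fell in H3K27ac (the same 5 genes), against 81.6% of 11873 genes. After quantile normalization 2 were higher in H3K4me3 (P2ry12 and Gpr34), and in H3K27ac 1 was higher (P2ry13) and 1 lower (Gpr34). The scaled P2ry13 value in FGR exceeds its window, so that rise does not show longer coverage. In H3K9ac, 4 of 7 fell (P2ry12, P2ry13, P2ry14 and P2rx4), against 30.0% of 15601 genes, and 1 rose (P2ry6), against 28.5%. Some cell type markers moved with the H3K9ac libraries. Over 4 neuronal markers the summed H3K9ac end coverage was 0.325 to 0.429 kb in Ctrl and 2.81 to 4.12 kb in FGR, with Snap25 at 0 in both groups. Over 5 markers of the oligodendrocyte lineage it was 1.52 to 3.36 kb and 4.57 to 6.69 kb. The 9 microglial markers summed to 44.6 to 46.5 kb in Ctrl and 32.0 to 36.8 kb in FGR, and each had a peak in every library. Border-associated macrophage markers summed to 2.399 to 2.69 kb of H3K9ac and 0 to 1.001 kb, with Lyve1 at 0 in both. H3K9ac sums of astrocyte markers (3.14 to 4.18 kb and 1.82 to 4.86 kb), endothelial markers (1.51 to 1.67 kb and 0.634 to 3.202 kb) and lymphocyte and neutrophil markers (0.147 to 0.472 kb and 0 to 0.394 kb) overlapped between the groups. In H3K4me3 the sums were higher in FGR for microglia (19.1 to 22.6 kb and 40.5 to 44.9 kb), border-associated macrophages (0 to 0.291 kb and 2.81 to 3.02 kb), astrocytes (0.775 to 1.38 kb and 3.118 to 3.74 kb), oligodendrocyte lineage (0.546 to 1.22 kb and 2.91 to 3.36 kb), endothelial cells (0 kb and 0.804 to 2.09 kb), neurons (0 kb and 0.316 to 0.831 kb) and lymphocytes and neutrophils (0 kb and 0.233 to 0.63 kb). In H3K27ac the microglial sum was 69.6 to 70.4 kb in Ctrl and 35.1 to 42.1 kb in FGR. Lower in FGR were also the oligodendrocyte lineage (2.22 to 3.01 kb and 1.19 to 1.73 kb) and endothelial cells (2.43 to 3.53 kb and 1.83 to 2.35 kb). The same held for border-associated macrophages (2.98 to 3.40 kb and 1.515 to 2.44 kb) and lymphocytes and neutrophils (0.506 to 1.18 kb and 0.059 to 0.297 kb). Astrocyte sums overlapped (3.66 to 5.335 kb and 2.95 to 4.10 kb). The part of these shifts in the receptor results was not tested.

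**Figure D5:**
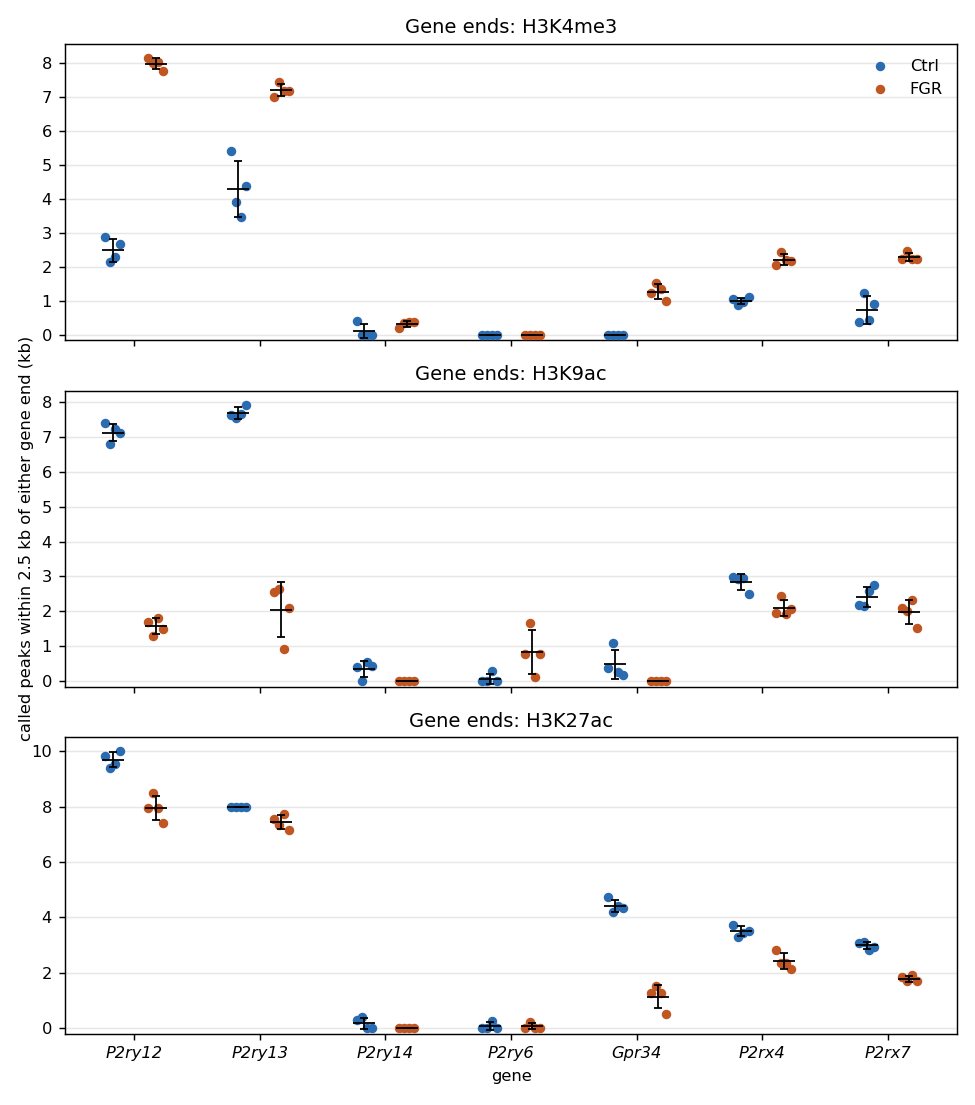
Gene-end coverage of the 7 receptor genes in kb of called peaks (y axis), 1 panel per mark. Each point is 1 library (blue Ctrl, orange FGR), with mean and SD in black; P2ry12 goes from 2.49 to 7.99 kb in H3K4me3 and from 7.12 to 1.57 kb in H3K9ac, and P2ry14 has at most 0.549 kb in any library. Under quantile normalization the H3K27ac differences at P2ry12, P2ry13, P2rx4 and P2ry6 and the H3K4me3 differences at P2ry13 and P2ry14 turn. For H3K27ac at P2ry13 the scaled FGR value is longer than the window.

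The difference between groups was itself compared between marks in 1 limma fit of end coverage over the 24 libraries and 16004 genes. The fit took all libraries as independent. Whether libraries of different marks share cells was not tested, so its p-values may be too small or too large. H3K4me3 moved upwards relative to H3K9ac at 6 of the 7 receptors (60.0% of genes) and downwards at P2ry6 (12.6% of genes). At P2ry6 end H3K4me3 was 0 in every library, so this gap of -0.77 kb restates its H3K9ac rise. The largest gap was at P2ry12, 11.1 kb (SE 0.285, adjusted p = 3.35e-17), followed by P2ry13 with 8.55 kb (SE 0.458, adjusted p = 1.60e-12). H3K27ac moved upwards relative to H3K9ac at P2ry12, by 3.80 kb, and P2ry13, by 5.08 kb (adjusted p = 1.66e-09 and 1.66e-08), a direction seen at 4.23% of genes. In Ctrl, H3K27ac covered 96.9% and 100% of these end windows, at or near the most that coverage can show. H3K27ac moved downwards relative to H3K9ac at P2ry6, Gpr34 and P2rx7 (54.6% of genes), with Gpr34 at -2.80 kb (SE 0.263, adjusted p = 2.92e-08). At P2ry14 and P2rx4 this contrast did not pass the test (adjusted p = 0.317 and 0.159). The first contrast rests on the libraries labelled FGR H3K4me3 and FGR H3K9ac, and the second on the latter.

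Set side by side, the domain values of FGR H3K4me3 stood nearer to those of Ctrl H3K9ac than to those of Ctrl H3K4me3 at 6 of the 7 genes, given here as FGR H3K4me3, Ctrl H3K9ac and Ctrl H3K4me3: P2ry12 (33.1%, 39.0% and 10.4%), P2ry13 (39.0%, 42.9% and 16.6%), P2ry14 (2.77%, 2.54% and 0.851%), P2ry6 (15.2%, 21.8% and 4.54%), Gpr34 (16.7%, 23.0% and 0.209%) and P2rx4 (5.14%, 7.08% and 1.60%). At P2rx7 (6.33%, 15.0% and 2.04%) it did not hold. Medians over all genes tested for each mark stood the same way, at 4.18%, 3.687% and 1.439%. This nearness is therefore not particular to the receptors, and the share of all genes that show it was not computed. The median of FGR H3K9ac over all genes tested was 3.69%. FGR H3K9ac was nearer to Ctrl H3K4me3 at P2ry12 (5.85%), P2ry13 (6.82%), P2ry14 (0.172%) and Gpr34 (0.109%), and nearer to Ctrl H3K9ac at P2ry6 (21.2%), P2rx4 (9.31%) and P2rx7 (8.72%). Whether labels were exchanged was not tested.

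In Ctrl, H3K27ac domain coverage put P2ry13 (66.8%) and P2ry12 (66.3%) first, whose ranges overlapped, then Gpr34 (45.7%), P2ry6 (32.8%), P2rx7 (22.2%), P2rx4 (11.7%) and P2ry14 (2.01%), each apart from the next. FGR libraries had the same order, from 49.96% at P2ry13 to 1.03% at P2ry14, with overlapping ranges for P2ry13 and P2ry12 and for Gpr34 and P2ry6. H3K9ac in Ctrl also ran in this order, with overlaps in the same 2 pairs. In FGR H3K9ac the order was P2ry6 (21.2%), P2rx4 (9.31%), P2rx7 (8.72%), P2ry13 (6.82%), P2ry12 (5.85%), P2ry14 (0.172%) and Gpr34 (0.109%). There P2ry6 stood apart from the rest, the next 4 overlapped with their neighbours, and so did P2ry14 and Gpr34. H3K4me3 in Ctrl placed Gpr34 last, overlapping P2ry14, and in FGR placed it 3rd, overlapping P2ry6.

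Over the domains of all 7 genes, 91 merged H3K9ac regions were found, of which 13 (14.3%) were called in all 4 Ctrl and no FGR library, against 3.35% of 151159 regions in the genome, and 5 (5.49%) only in FGR, against 6.29%. Gpr34 had 6 of the 13, P2ry12 had 5, of which 1 is shared with P2ry13, and P2ry14 and P2ry6 had 1 each. H3K4me3 had 73 regions, 16 of them (21.9%) only in FGR, against 25.4% of 55005, and 0 only in Ctrl, against 0.0218%. Of 64 H3K27ac regions, none was called only in FGR (0.157% of 79769) or only in Ctrl (1.23%). All 8 libraries shared 22 of them, and the share of all regions so called is not given here, so this count has no background. These counts follow from the lists as deposited, and with lists of equal length the H3K4me3 regions called only in FGR numbered 1.

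H3K9me3, the heterochromatin mark, was hardly listed at these genes at a common cutoff, which left few peaks anywhere in Ctrl. At a −log10 q of at least 1.3 in the broad lists of replicates 1 to 3, all 7 domains were listed at 0 in every library, except 0.475 kb at P2rx4 in FGR replicate 1, and none could be tested. Of 21627 genes, 4243 could be tested, so a 0 was common and in Ctrl says little about the mark. Lists as deposited had been made at unlike thresholds, with 345501 to 492938 peaks in Ctrl, of which 70 to 78 reach that q, and 15522 to 22903 in FGR. With them, 6 of the 7 domains were lower in FGR (all but P2ry13), against 79.9% of 20111 genes. P2ry12 for example had 12.3, 9.02 and 5.84 kb in Ctrl and 0 in FGR. Replicate 4, deposited as narrow peaks, had none in any of the 7 domains in either group, from lists of 257 peaks in Ctrl and 11204 in FGR.

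The rest of the purinergic system, 40 genes of other receptors, nucleotide-degrading enzymes, release and transport proteins and downstream signalling, is given by gene-end coverage. In H3K4me3, 31 of 36 tested rose by limma, against 95.5% of all genes (median difference 0.78 kb, and 0.89 kb over all genes). In H3K27ac, 21 of 26 fell, against 81.6% of all genes (-0.74 kb, and -0.71 kb over all genes). In H3K9ac 11 of 37 rose, against 28.5%, and 10 fell, against 30.0% (0.20 kb, and 0.03 kb over all genes). By group, 4 of 9 downstream genes fell in H3K9ac (median -0.47 kb), and of 10 enzyme genes 6 rose and 2 fell (median 0.45 kb), and the difference between these groups was not tested. The 4 genes with the smallest p in H3K9ac all fell. They were Casp1, the inflammasome protease (3.40 ± 0.0558 kb to 0.172 ± 0.198 kb), Pik3cg, a lipid kinase downstream of G protein-coupled receptors (3.60 ± 0.154 kb to 0.559 ± 0.229 kb), the adenosine receptor gene Adora3 (6.75 ± 0.509 kb to 1.97 ± 0.294 kb) and the receptor gene P2ry10b (2.22 ± 0.111 kb to 0.181 ± 0.226 kb). P2ry10b also had the smallest p in H3K4me3, listed at 0 in Ctrl with 2.07 ± 0.0104 kb in FGR. It was followed by the nucleoside transporter gene Slc29a1 (0.0878 ± 0.175 kb to 3.14 ± 0.326 kb) and the G protein genes Gnai2 (2.003 ± 0.157 kb to 4.14 ± 0.236 kb) and Gnaq (1.02 ± 0.271 kb to 2.95 ± 0.115 kb). In H3K27ac the smallest p belonged to the inflammasome adaptor gene Pycard (4.05 ± 0.257 kb to 1.07 ± 0.367 kb), the nucleoside transporter gene Slc29a3 (4.02 ± 0.284 kb to 1.60 ± 0.300 kb), the vesicular nucleotide transporter gene Slc17a9 (3.05 ± 0.222 kb to 1.55 ± 0.145 kb) and Adora3 (9.21 ± 0.228 kb to 5.83 ± 0.779 kb).

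Likeness of pattern was taken as Pearson's r of gene-end coverage over the 24 libraries of 3 marks, which share marks and groups, so r describes these libraries only. Among the genes near P2ry12 in pattern was the RNA-sensing receptor gene Tlr7 (0.981). P2ry13 was most like Casp1 (0.980) and Pik3cg (0.978), both also on the purinergic list. For Gpr34 these were Cntrl (0.972) and Tlr11 (0.962), for P2rx4 Zfp839 (0.976) and Rab11b (0.971), and for P2rx7 Tardbp (0.958) and Mex3c (0.951). P2ry14, with values near 0, reached 0.817 with Gclc and 0.788 with Paip2b. P2ry6, with many values at 0, reached 0.974 with both Olfr71 and Fam166c. Among the 7 receptors, r was 0.938 for P2ry12 and P2ry13 and 0.869 for P2rx4 and P2rx7, while P2ry6 had a negative r with P2ry12 (-0.503) and P2ry13 (-0.542). P2ry6 ends were at 0 in every H3K4me3 library and reached at most 1.68 kb in any other, so its r rests on few, small values. Over the domain, P2ry6 rose in H3K4me3 and fell in H3K27ac as P2ry12 did. Of the genes that overlap a receptor body, Med12l was listed at 0 in Ctrl and had 0.773 ± 0.383 kb of H3K4me3 and 0.439 ± 0.244 kb of H3K9ac at its ends in FGR, with no H3K27ac in either group. Camkk2 rose in H3K4me3 (0.748 ± 0.520 kb to 1.87 ± 0.0428 kb) and fell in H3K27ac (2.22 ± 0.211 kb to 0.993 ± 0.281 kb), and so did Cask (0.173 ± 0.201 kb to 2.90 ± 0.189 kb, and 3.17 ± 0.609 kb to 0.703 ± 0.512 kb).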

How the data were processed

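Peak lists of 32 ULI-NChIP-seq libraries were analysed, 1 list per library. Per the submitters' processing notes the genome was mm10, and the tools named are MACS2 2.2.7.1, DiffBind 3.12.0, Bowtie2 2.4.5, Trim Galore 0.6.5 and SAMtools 1.3.1. Each list gives, as deposited by the authors, a score, a fold enrichment and the −log10 p and −log10 q of every peak. H3K9me3 lists are broad in replicates 1 to 3 and narrow in replicate 4, which was left out of its test. A minimum −log10 q of 1.3 was set on the broad lists.

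Covered kb were computed with Python 3.11.15 for 21627 protein-coding genes (RefSeq, GRCm38.p6). They were fitted per mark with limma 3.58.1 in R 4.3.3 on both groups, with Benjamini-Hochberg adjustment over all genes with a peak in 2 or more libraries. On simulated data the share of false calls stayed under the threshold for H3K4me3 and H3K9ac and was above it for H3K27ac, and recovery was lowest for H3K9ac. The simulation drew normal values without zeros and changed 200 genes by 1 kb. The real lists hold many zeros, and most genes were called in H3K4me3 and H3K27ac. These shares therefore do not give the error of the fits reported here. The cluster was compared by a two-sided exact permutation test. Strand came from the promoter table for 17273 genes. Promoter sequences are from RefSeq (GRCm38.p6), which had entries for 5 of the 7 receptors. At most 0.545% of the peaks of a library were identical in another replicate, so all counted as separate.

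The members, gene lists and tests were chosen with earlier results of these data known. Named were the 7 receptors, the 4 other purinergic genes with the smallest p per mark, genes overlapping a receptor's body, and the 2 genes most like each receptor, of which 1 is not reported here. Arhgef17 and the markers were named beyond that rule. Alternatives were other windows, stricter peaks, lists of equal length, quantile normalization, a replicate block and leaving out each library. Read depth was not part of the lists, and input libraries were not analysed here.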

Additional observations from a re-analysis of the deposited data

Results flagged for a closer look

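In 10 of 77 groups of 4 libraries, 1 library stood apart from the others, its gap to the nearest library taking up more of the group's range than Dixon's 95% critical value allows. Chance marks about 1 in 20 groups of continuous values, but 6 of these 10 hold 3 libraries at 0 and 1 above, where the gap fills the range by construction and that rate does not apply.

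At P2ry14 the H3K4me3 gene-end coverage of Ctrl replicate 1 was 0.409 kb with the other Ctrl libraries at 0, and that of FGR replicate 1 was 0.191 kb with the others at 0.349 to 0.381 kb. P2rx7 had 2.46 kb of H3K4me3 at its ends in FGR replicate 2 and 2.21 to 2.24 kb in the other FGR libraries. P2ry6 ends had 0.292 kb of H3K9ac in Ctrl replicate 3, 0.267 kb of H3K27ac in Ctrl replicate 3 and 0.217 kb of H3K27ac in FGR replicate 2, each with 0 in the rest of its group. P2rx4 ends had 2.5 kb of H3K9ac in Ctrl replicate 4 and 2.93 to 2.998 kb in the others. Over the Gpr34 domain, 0.487 kb of H3K4me3 in Ctrl replicate 2 and 0.254 kb of H3K9ac in FGR replicate 2 stood against 0 in the rest. The P2rx4 domain had 6.45 kb of H3K27ac in Ctrl replicate 3 and 7.46 to 7.58 kb in the others.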

How the results depend on the processing

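Of 639 values of single receptors under other settings, 573 kept their direction and their side of the threshold, 31 lost the call, 14 gained one and 21 turned, of which 10 had passed the test as reported. Those 10 turned under quantile normalization: gene-end H3K4me3 at P2ry13 (-0.57 kb), gene-end H3K27ac at P2ry12 (0.433 kb), P2ry13 (2.02 kb) and P2rx4 (0.35 kb), domain H3K4me3 at P2ry14 (-0.0335 percentage points) and domain H3K27ac at P2ry12 (5.58), P2ry13 (10.9), P2ry14 (0.0243), P2ry6 (1.3) and P2rx4 (0.207). The other 11 passed neither way: under quantile normalization gene-end H3K4me3 at P2ry14 (-0.289 kb) and H3K27ac at P2ry6 (0.0887 kb), the latter also without FGR replicate 1, 3 or 4 (-0.0348 to 0.00558 kb over the 6 fits without 1 library that could be tested), domain H3K9ac at P2ry6 with 50 kb flanks (2.37), a fold of at least 4 (0.623) and without FGR replicate 4 (-1.45 to 0.679 over all fits without 1 library), and at P2rx4 with 5 kb flanks (-0.322), a −log10 q of at least 5 (-0.456) and lists of equal length (-0.953). For gene-end H3K4me3 at P2ry14, quantile normalization lifted Ctrl values listed at 0, so its turn does not show lower coverage in FGR. With quantile normalization, H3K4me3 rose at the ends of 2 receptors and 2220 genes and in the domains of 2 receptors and 2953 genes. H3K27ac rose at the ends of 1 receptor (P2ry13, whose scaled FGR value exceeds its window) and fell at 1, with 1344 genes lower, and rose in 2 domains and fell in 0, with 1679 genes lower. The rise of H3K9ac at receptor ends (P2ry6) was found in 0 genes with a −log10 q of at least 5, a fold of at least 4, lists of equal length, quantile normalization or a replicate block, and in 0 to 1 when each library was left out in turn. P2ry6 and Gpr34 have no strand in the promoter table and were not tested with the 5′ end alone. Under that setting 2829 genes rose in H3K9ac, and 3 of the 5 receptors tested fell in H3K27ac, against 7454 of 8972 genes. Domain H3K9ac rose at 1 receptor (P2rx4) in kb in place of percent and at 0 to 1 when each library was left out, and 3863 genes rose at a −log10 q of at least 5. H3K9me3 fell in 6 domains with lists as deposited. H3K4me3 regions called only in FGR numbered 10 with 50% of the region covered, 9 at a −log10 q of at least 5 and 1 with lists of equal length. H3K9ac regions only in FGR numbered 1 and 1 under the last 2 settings, and those only in Ctrl 8 at the stricter q. H3K27ac regions only in Ctrl numbered 7 with 50% covered and 3 with equal lists. The shares of all regions under these settings are not given here, so these region counts have no background. The causes were not tested.

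Same-numbered Ctrl and FGR libraries of a mark did not deviate together (r of -0.0209 to 0.0338), so the numbers do not pair them. Libraries of different marks were not compared in this way. With a replicate block, H3K9ac at the ends rose at 0 receptors and fell at 3, and no other count of receptors changed. The cluster comparison kept its direction and its p under stricter peaks and lists of equal length. Depth is unknown, so its limits cannot be given.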
